A study of Mus musculus with 11 samples.

Results

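Heavy chain variable segments were the 88 rows of the deposited table whose gene symbol starts with Ighv, out of 10885 genes. All 88 carry the biotype of a functional immunoglobulin variable gene in GENCODE M21, which lists 113 such Ighv genes on chromosome 12, and by the number after Ighv they fall into 14 subfamilies. RNA was sequenced in 11 libraries from the unsorted cells of 6 mice, taken from the spleen or from lymph node (LN). Mice 1 and 2 were wild type (Wt), mice 3 and 4 were 3'RR-BCL2 transgenics (Tg), in which the 3' regulatory region of Igh drives BCL2, and mice 5 and 6 were Igk-BCL2 knock-ins (KI), with BCL2 at the kappa light chain locus. Every mouse had received sheep red blood cells by intraperitoneal injection 3 times over 3 months, and tissue was taken 1 month after the last dose; strain, sex, age and zygosity are not in the labels. Each tissue and genotype had 2 libraries except spleen Tg, which had 1 (mouse 4), and the spleen and LN libraries of a mouse share its number.

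An antibody heavy chain is assembled in the developing B cell by joining 1 V, 1 D and 1 J segment, and the joined exon is then spliced to a constant region. Each B cell clone therefore transcribes its own V segment at a high level, and a plasma cell, which secretes antibody, holds far more heavy chain mRNA than a resting B cell. The use of V segments in a tissue reads out which segments the clones present carry, weighted by how much heavy chain mRNA each one makes. In whole tissue, more cells of a clone and more mRNA per cell cannot be told apart.

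The 6 segments that the results turn on are shown by their last 60 bases, 5′ to 3′, from the GENCODE M21 transcripts (GRCm38). Capitals mark the codon of the conserved cysteine that ends the framework before the third complementarity-determining region, the part of the antibody completed by D and J. Ighv1-26, Ighv9-3 and Ighv4-1 each led more than 1 library, Ighv1-81 led both KI lymph nodes, Ighv5-17 was a main segment of KI mouse 6, and Ighv2-7 was highest in that mouse.
Ighv1-26: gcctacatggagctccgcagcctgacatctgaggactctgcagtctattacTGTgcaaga
Ighv1-81: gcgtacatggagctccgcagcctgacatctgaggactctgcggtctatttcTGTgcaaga
Ighv9-3: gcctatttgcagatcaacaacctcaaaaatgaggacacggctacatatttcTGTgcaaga
Ighv5-17: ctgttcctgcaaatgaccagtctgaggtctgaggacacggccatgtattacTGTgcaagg
Ighv4-1: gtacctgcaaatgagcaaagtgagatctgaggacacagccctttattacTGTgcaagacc
Ighv2-7: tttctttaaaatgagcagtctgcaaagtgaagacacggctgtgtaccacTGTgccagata

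Over the whole segment Ighv1-26 and Ighv1-81, of the same subfamily, were 85.8% identical, counted over the shorter sequence, and the other 14 pairs of these 6 lay between 55.8% (Ighv1-26 with Ighv2-7) and 75.8% (Ighv4-1 with Ighv5-17). Among all 88 segments the median identity to the nearest other segment was 94.9%. At 95% identity or more stood 37 of 3828 pairs, which involved 43 segments, and at 98% or more stood 3 pairs, Ighv1-62-2 with Ighv1-71 (100%), Ighv1-20 with Ighv1-37 (98.6%) and Ighv1-61 with Ighv1-52 (98.6%). Reads of such pairs could be split or lost in counting, so values of the 6 segments in those 3 pairs are uncertain. The same could hold for the other pairs at 95% or more. Among these were Ighv1-26 with Ighv1-18 (96.9%), and Ighv1-34 with Ighv1-26 and with Ighv1-22 (96.6% each). Ighv1-81 had its nearest neighbour in Ighv1-85 at 92.9%, and Ighv4-1 had none closer than 75.8%.

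Values are a normalised signal, the read count of a gene divided by 1 factor per library. Per library the signal summed to between 17217400 and 18046300, and LN depth was 11128568 to 21067988 reads. The authors' table holds no gene whose highest value is under 109.3, and 19 of the 88 segments reached that level in a KI library alone, so counts are given for all 88 and for the other 69. Differences are KI minus Wt, Tg minus Wt or LN minus spleen on the log2(value + 1) scale from limma-trend, with Benjamini-Hochberg adjustment over 10885 genes, and a segment was called at an adjusted p under 0.05. The labelled tissues carried all 8 B cell and all 8 T cell markers listed. In Wt, 8 of 8 T cell markers were called higher in LN, beside 3.09% of all genes. In the same comparison 8 of 8 macrophage markers were called higher in spleen, beside 6.29% of all genes.

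KI mouse 6 stood apart by its light chains. The kappa constant gene Igkc was 5793 in its spleen and 4235 in its LN, against 336217 and 419339 in mouse 5 and 22589 to 91369 in the 7 Wt and Tg libraries. The 79 kappa variable segments summed to 142 and 168 in mouse 6 and to 172700 and 206681 in mouse 5, and the lambda constant genes to 159364 and 203188 in mouse 6 and 40476 and 37566 in mouse 5. Both KI mice carried abundant heavy chain message, but they differed in the light chain that accompanied it. Wt mouse 1 also stood apart: Xist, which is transcribed from the inactive X of females, was 14513 and 12314 in its libraries and at most 8.04 in the other 9. Results are therefore given with and without each KI mouse, and where leaving out a library moved a count by more than 1.5 times it is named.

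The summed Ighv signal was far higher in KI than in Wt or Tg, most of all in LN. It was 7958 and 9268 in Wt LN (mice in numerical order here and below), 7836 and 9043 in Tg LN and 142432 and 115654 in KI LN. In spleen it was 24474 and 28975 in Wt, 37170.3 in the 1 Tg library and 113856 and 70601 in KI. KI did not overlap the other genotypes in either tissue, and the Wt and Tg LN values overlapped.

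In LN the mean log2 sum was 3.90 higher in KI than in Wt, where the replicate SDs of both groups combined to 0.26, and leaving out 1 library gave 3.75 to 4.05. In spleen it was 1.75 higher, with a combined SD of 0.52 and a range of 1.41 to 2.10. Tg and Wt LN differed by -0.03 with a combined SD of 0.21. As a share of all signal, Ighv was 0.0479% ± 0.00499 (SD, n = 2) in Wt LN and 0.727% ± 0.0876 (SD, n = 2) in KI LN, and was 0.151% ± 0.0178 (SD, n = 2) in Wt spleen and 0.529% ± 0.169 (SD, n = 2) in KI spleen. The order of the tissues was not the same in the genotypes: the 3 mice of Wt and Tg with both tissues had the higher Ighv sum in spleen, and both KI mice had it in LN.

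**Figure D1:**
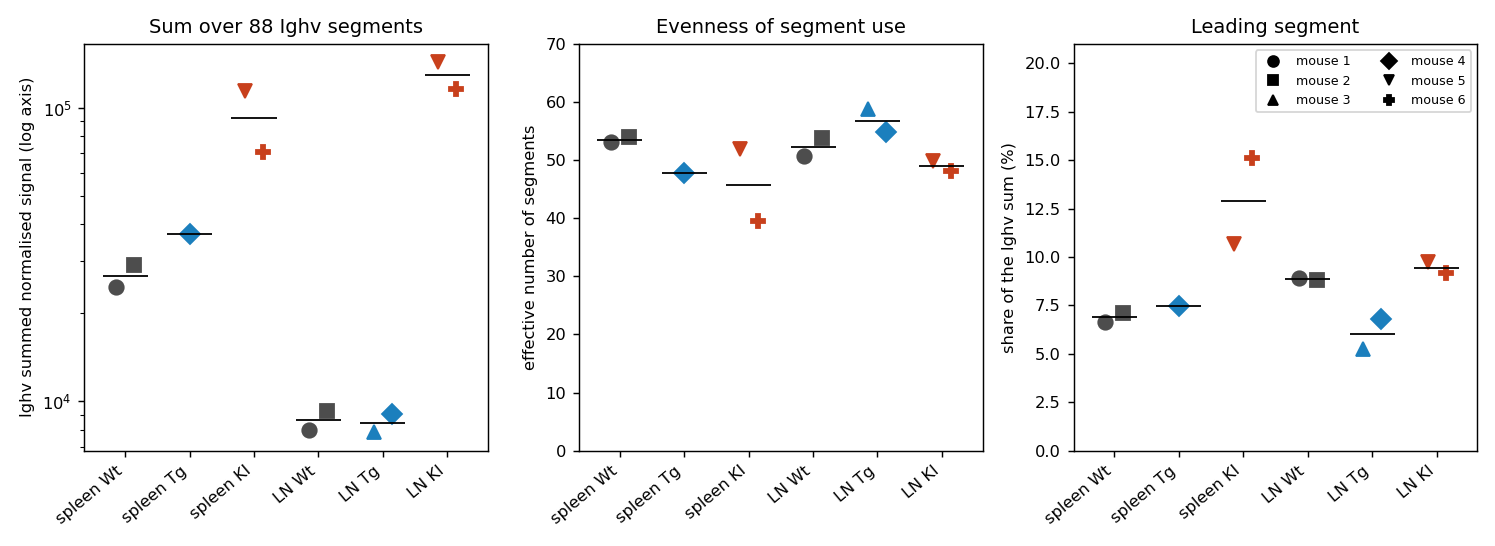
Summed Ighv normalised signal (log axis), effective number of segments, and share of the leading segment in percent, by tissue and genotype; each symbol is 1 library, its shape the mouse, and bars are group means. The 4 KI libraries lie above the other 7 in the sum, from 70601 to 142432, while the effective number stays between 39.5 and 58.8 in all 11.

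The higher signal was spread over many segments. The effective number of segments, the exponential of the Shannon entropy of segment shares (88 if all were used equally), was 50.7 and 53.8 in Wt LN, 58.8 and 54.8 in Tg LN and 49.8 and 48.1 in KI LN. In spleen it was 53.1 and 53.96 in Wt, 47.8 in Tg and 51.97 and 39.5 in KI. Both KI LN values lay below the Wt and Tg ones. In spleen KI mouse 5 lay between Tg and Wt, and KI mouse 6 was the lowest of all 11 libraries.

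The difference in effective number, KI minus Wt, was -3.33 in LN with a combined SD of 2.52 and -7.83 in spleen with a combined SD of 8.86, so in spleen it was within the replicate spread. Without the LN of Wt mouse 2 the LN difference was -1.78; in spleen it was -1.58 without KI mouse 6 and -14.1 without KI mouse 5. The 5 leading segments together held 28.2 and 25.6% of the sum in Wt LN, 27.4 and 31.4% in KI LN, 26.2 and 25.4% in Wt spleen and 25.8 and 41.1% in KI spleen. Leaving out each library's leading segment gave effective numbers of 46.0 in the spleen of KI mouse 6 and 48.95 to 59.3 in the other 10 libraries. The number of segments with a signal above 10 was 76 to 79 in the Wt and Tg LN libraries, 85 to 88 in the Wt and Tg spleens and 87 or 88 in KI.

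No library was taken over by 1 segment. The leading segment held 8.92 and 8.83% in Wt LN (Ighv1-18 in mouse 1 and Ighv4-1 in mouse 2), 5.26 and 6.81% in Tg LN (Ighv9-3 and Ighv4-1) and 9.73 and 9.17% in KI LN (Ighv1-81 in both). In spleen it held 6.64 and 7.13% in Wt (Ighv4-1 and Ighv1-26), 7.45% in Tg (Ighv1-80) and 10.7 and 15.1% in KI (Ighv1-26 in mouse 5 and Ighv9-3 in mouse 6). Shares are of signal and not per length; the annotated transcripts run from 294 to 461 bases with a median of 351, and per base the leader was the same in 9 of 11 libraries, with Ighv1-26 in place of Ighv4-1 in the Wt spleen of mouse 1 and the Tg LN of mouse 4.

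Ighv1-26 was among the 3 leading segments in 10 of the 11 libraries. Its share was 6.40 and 7.13% in Wt spleen, 5.58% in Tg spleen, 10.7 and 7.73% in KI spleen, 5.67 and 5.58% in Wt LN, 5.20 and 6.16% in Tg LN and 4.64 and 2.70% in KI LN. The KI spleens were the highest and the KI lymph nodes the lowest, with no overlap between these groups and the rest. Its signal was 1566 and 2065 in Wt spleen, 12132 and 5455 in KI spleen, 452 and 517 in Wt LN against 6608 and 3125 in KI LN. Although its share of KI LN was low, its signal rose there by 3.23 ± 0.51 (SE) (limma adjusted p = 0.00719), and in spleen by 2.18 ± 0.51 (SE) (limma adjusted p = 0.0389), a call lost when any 1 of 7 libraries was left out or spleen was fitted alone.

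**Figure D2:**
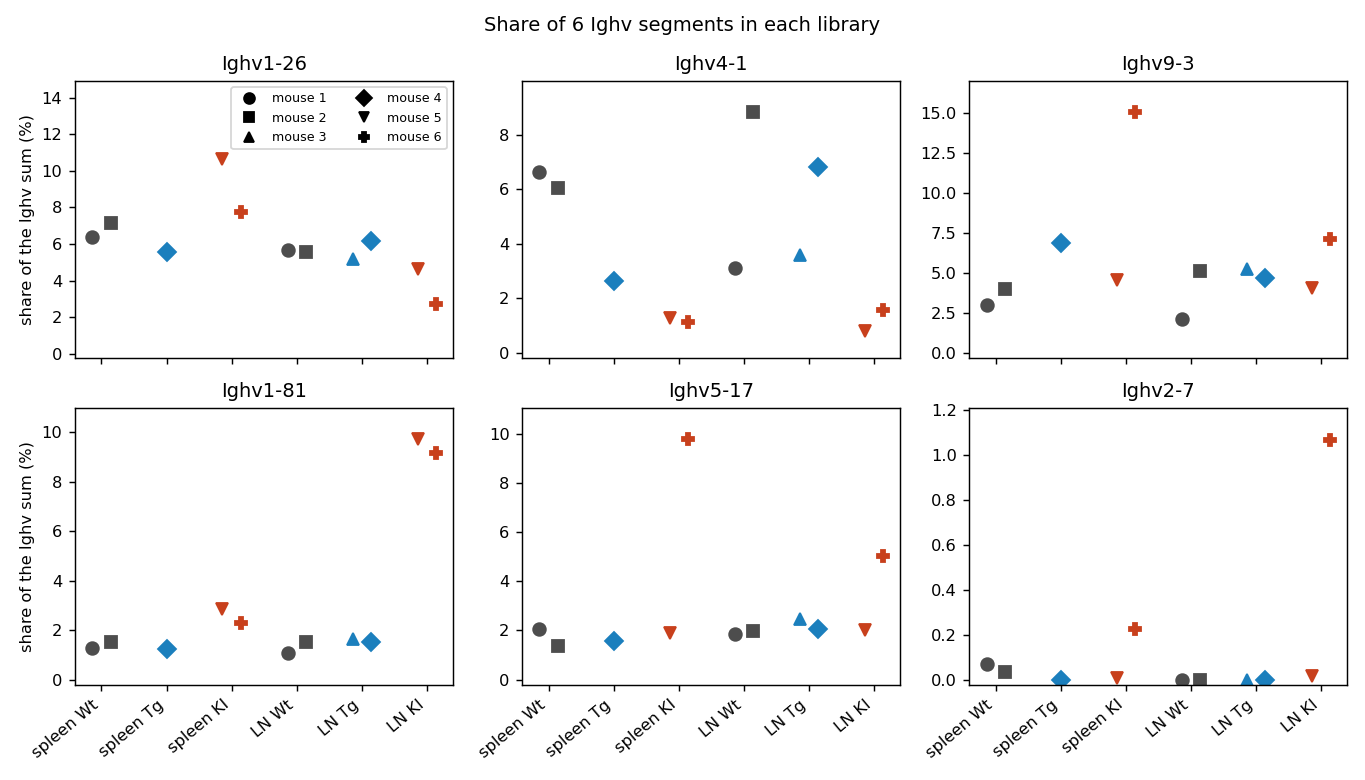
Share of the Ighv sum in percent for 6 segments, by tissue and genotype; each symbol is 1 library and its shape the mouse. Ighv1-81 is at 9.73% and 9.17% in the KI lymph nodes and at most 2.86% elsewhere, Ighv4-1 is at most 1.57% in KI, and Ighv9-3, Ighv5-17 and Ighv2-7 are highest in KI mouse 6.

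In LN, 71 of 88 segments rose in KI against Wt and 0 fell, beside 13.8% of all 10885 genes called higher and 12.2% called lower (limma). The median over the 88 was 3.67 on the log2 scale, from 1.20 for Ighv12-3 to 7.36 for Ighv2-7, against a median of -0.02 over all genes. Of the 69 segments that reached the table's minimum outside KI, 54 rose, with a median of 3.74; of the 19 whose entry into the table rested on KI, 17 did. On recovered whole reads edgeR called 77 and DESeq2 called 82. The shares of all genes called by edgeR and DESeq2 were not counted, here or in the comparisons with Tg below. Without KI mouse 5 in both tissues 59 were called, and without KI mouse 6 in both tissues 69. It was 58 without the LN of Wt mouse 1, and the lowest count, 48, came without the LN library of KI mouse 5.

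Ighv1-81, a member of Ighv1 near the end of the locus farthest from D, had the smallest p of the 10 segments with the largest rise. Its signal was 85.5 and 140.03 in Wt LN, 130.2 and 139 in Tg LN and 13863 and 10608 in KI LN. In spleen it was 311 and 437 in Wt, 453 in Tg and 3261 and 1608 in KI. Both KI mice were far above every other library in both tissues, and each had several times more in LN than in spleen. The rise over Wt was 6.78 ± 0.38 (SE) in LN (limma adjusted p = 6.64e-05) and 2.63 ± 0.38 (SE) in spleen (limma adjusted p = 0.00603); the LN call held under all 21 alternatives and the spleen call was lost when spleen was fitted alone. Its share of the repertoire was 9.73 and 9.17% in KI LN against 1.07 and 1.51% in Wt LN.

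Ighv1-34, also of Ighv1, rose from a low level. It was 3.23 and 12.03 in Wt LN, 32.6 and 82.7 in Tg LN and 1122 and 648 in KI LN, and 44.6 and 66.9 in Wt spleen, 115 in Tg spleen and 2422 and 684 in KI spleen. KI was above all others, and the Tg values lay between Wt and KI in both tissues. The KI rise was 6.85 ± 0.83 (SE) in LN (limma adjusted p = 0.00205) and 4.53 ± 0.83 (SE) in spleen (limma adjusted p = 0.0163), the spleen call being lost without either Wt spleen and when spleen was fitted alone. Ighv1-26, at 96.6% identity to Ighv1-34, had a signal of 12132 in the spleen of KI mouse 5. Whether reads were shared between them was not tested. Ighv1-85, the nearest relative of Ighv1-81, was 41.9 and 59.1 in Wt LN against 1759 and 1410.2 in KI LN, and its rise of 4.96 ± 0.52 (SE) (limma adjusted p = 0.000668) held under all 21 alternatives.

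The largest fitted difference belonged to Ighv2-7, of the Ighv2 (Q52) subfamily, and rested on 1 mouse. It was listed at 0 in both Wt and both Tg lymph nodes and in the Tg spleen, at 16.7 and 9.44 in Wt spleen, and in KI at 20.9 and 1234 in LN and 6.003 and 159.8 in spleen. KI mouse 6 was the high one in both tissues, and KI mouse 5 lay below Wt in spleen. Against a floor of 3 reads per library, averaged over the group, the KI LN mean was at least 155-fold higher than Wt and at least 185-fold higher than Tg; KI mouse 5 alone was at least 5.14-fold and KI mouse 6 at least 304-fold over the Wt floor. The limma call (adjusted p = 0.0168) was lost without the LN of KI mouse 6, without either Wt LN, with a pseudocount of 5, and in edgeR and DESeq2, its adjusted p reaching at most 0.241.

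The other 7 of the 10 with the largest LN rise were Ighv7-4, Ighv1-56, Ighv8-8, Ighv1-5, Ighv2-9, Ighv3-5 and Ighv1-85, at 4.80 to 5.26 on the log2 scale, and belonged to 5 subfamilies. Of the 10, Ighv2-7, Ighv7-4, Ighv1-56 and Ighv3-5 reached the table's minimum in KI only, so these 4 could be in the table only by being high in KI. Ighv8-8, of the Ighv8 subfamily, was 72.6 and 271 in Wt LN, 140.1 and 96.2 in Tg LN and 4388 and 6111 in KI LN, and in spleen 694 and 831 in Wt and 1897 and 1516 in KI. Its difference was 5.19 ± 0.61 (SE) in LN (limma adjusted p = 0.00278) and 1.16 ± 0.61 (SE) in spleen (limma adjusted p = 0.258). Calls of Ighv1-56 and Ighv3-5 were lost without the LN of KI mouse 5, that of Ighv3-5 also without the LN of Wt mouse 1, and that of Ighv1-5 without any 1 of the KI libraries or either Wt LN.

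At the other end, 17 of the 88 did not pass the test in LN, though all 17 had a positive difference. Ighv4-1, the only segment of its subfamily in the table, led 2 of the 4 Wt libraries and had the second smallest difference. It was 247 and 818 in Wt LN, 282 and 616 in Tg LN and 1139 and 1818 in KI LN; in spleen it was 1626 and 1752 in Wt, 970.3 in Tg and 1450.2 and 783 in KI. The KI lymph nodes lay above Wt, and the KI spleens below it, but neither difference passed, at 1.68 ± 0.72 (SE) in LN (limma adjusted p = 0.155) and -0.66 ± 0.72 (SE) in spleen (limma adjusted p = 0.575). Its share was 3.10 and 8.83% in Wt LN against 0.8 and 1.57% in KI LN, and 6.64 and 6.05% in Wt spleen and 1.27 and 1.11% in KI spleen.

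Ighv12-3 and Ighv11-2, which encode well-known antibodies of B-1 cells that bind phosphatidylcholine, were also in this set. Ighv12-3 was 19.4 and 50.3 in Wt LN, 46.1 and 116 in KI LN, 149 and 95.96 in Wt spleen and 142 and 264 in KI spleen, and its groups overlapped in both tissues. Ighv11-2 was 12.9 and 7.66 in Wt LN, 60.4 and 68.96 in KI LN, 323 and 56.6 in Wt spleen and 281 and 60.2 in KI spleen. Its KI lymph nodes lay above Wt, while its spleens overlapped, and mouse 1 was far above mouse 2 in Wt spleen. Neither passed the test in LN, with limma adjusted p of 0.194 and 0.0788. They were chosen for mention after their values were seen.

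In spleen, 22 of 88 segments rose in KI against Wt and 0 fell, beside 7.63% of all genes called higher and 9.21% called lower. The median over the 88 was 1.56, with 83 positive and 5 negative differences, from -1.31 for Ighv1-37 to 4.53 for Ighv1-34, against 0.01 over all genes. Of the 69 segments that reached the minimum outside KI, 18 rose. All 22 were also called in LN, and all 88 segments had a larger difference in LN than in spleen; the tissues come from the same mice. The count depended on single libraries: it was 7 without the spleen of Wt mouse 1, 10 without that of Wt mouse 2, 8 without that of KI mouse 5, and 14 when spleen was fitted alone. Without KI mouse 5 in both tissues 13 were called, and without KI mouse 6 in both tissues 31.

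**Figure D3:**
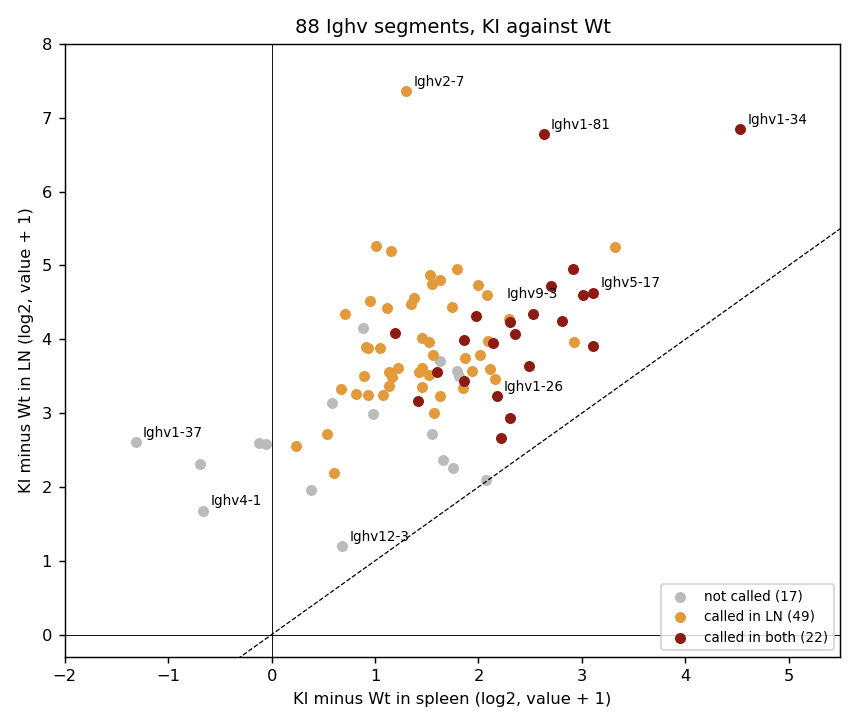
KI minus Wt on the log2(value + 1) scale in spleen (horizontal) and LN (vertical) for 88 Ighv segments, coloured by limma call at an adjusted p under 0.05; the dashed line marks equal differences. All 88 points lie above the dashed line, 22 called in both tissues, 49 in LN and 17 in neither.

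Next after Ighv1-34 among the segments called in spleen was Ighv3-1, of the Ighv3 subfamily. It was 71.5 and 56.6 in Wt, 131 in Tg and 311 and 997 in KI spleen, and rose by 3.11 ± 0.50 (SE) (limma adjusted p = 0.00643). Every KI spleen was above the others, with KI mouse 6 higher than KI mouse 5. The call was lost without the spleen of Wt mouse 2 and when spleen was fitted alone.

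Ighv5-17, of Ighv5, and Ighv9-3, of Ighv9, rose in both tissues and were led by KI mouse 6. Ighv5-17 was 500.4 and 396 in Wt spleen and 2139 and 6918 in KI spleen; in LN it was 148 and 183 in Wt against 2889 and 5827 in KI LN. Ighv9-3 was 734 and 1158 in Wt spleen, 2554 in Tg spleen, 5182 and 10652 in KI spleen, 168 and 471 in Wt LN, 412 and 422 in Tg LN and 5734 and 8252 in KI LN. Both were above Wt in each KI library, and they were the 2 leading segments in the spleen of KI mouse 6, at 15.1% (Ighv9-3) and 9.80% (Ighv5-17) of its Ighv sum. In LN the rise was 4.63 ± 0.60 (SE) for Ighv5-17 (limma adjusted p = 0.00394) and 4.61 ± 0.61 (SE) for Ighv9-3 (limma adjusted p = 0.00446), and both calls held under all 21 alternatives. In spleen it was 3.11 ± 0.60 (SE) (limma adjusted p = 0.0237) and 3.01 ± 0.61 (SE) (limma adjusted p = 0.0279). Both spleen calls were lost without either Wt spleen and when spleen was fitted alone, and that of Ighv9-3 also without any 1 KI library.

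The remaining named spleen segments, Ighv1-85, Ighv2-6-8, Ighv6-3, Ighv1-81, Ighv14-3 and Ighv1-77, rose by 2.48 to 2.91; Ighv2-6-8 and Ighv1-77 reached the table's minimum in KI only. Ighv6-3, of the Ighv6 subfamily, held 4.77% of the Ighv sum in each tissue of KI mouse 5. It was 1084 and 485 in Wt spleen and 5434 and 4115 in KI spleen; in LN it was 124 and 210.04 in Wt against 6794 and 2715 in KI LN. KI mouse 5 was above KI mouse 6 in both tissues. Its spleen call was lost without any 1 of 6 libraries and when spleen was fitted alone, and its LN call (limma adjusted p = 0.00343) held under all 21 alternatives.

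By subfamily, at least 1 segment rose in KI LN in 11 of the 14, and the 3 without a call (Ighv4, Ighv11 and Ighv12) hold 1 segment each. The single segment of Ighv7, Ighv7-4, reached the table's minimum in KI only; over the 69 segments that reached it outside KI, 10 of 13 subfamilies had a call, with 29 of 37 called in Ighv1, 5 of 7 in Ighv2 and 6 of 7 in Ighv5. Over all 88, called were 35 of 45 segments of Ighv1, the large J558 family, 7 of 9 of Ighv2, 8 of 9 of Ighv5, 5 of 5 of Ighv3, 4 of 4 of Ighv9, 4 of 4 of Ighv14, 2 of 3 of Ighv8, and both of Ighv6 and of Ighv10. Median differences in these ran from 3.16 in Ighv14 to 4.26 in Ighv6. In spleen 8 of 45 were called in Ighv1, 3 of 9 in Ighv2, 3 of 9 in Ighv5 and 3 of 4 in Ighv9, with medians of 1.52, 1.53, 2.10 and 2.22.

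The Ighv1 share differed more between the KI mice than between the means of KI and Wt. Ighv1 held 57.2 and 48.8% of the sum in Wt LN, 49.3 and 53.3% in Tg LN and 61.8 and 52.5% in KI LN, and 50.7 and 55.2% in Wt spleen, 58.2% in Tg spleen and 60.6 and 39.97% in KI spleen. KI mouse 5 had the highest Ighv1 share in each tissue and the spleen of KI mouse 6 the lowest of all, so the genotype difference of 4.17 percentage points in LN (combined SD 8.89) and -2.65 in spleen (combined SD 14.96) was within the spread. Ighv9 held 5.51 and 16.7% in KI spleen against 3.82 and 5.02% in Wt spleen, and Ighv5 7.74 and 15.2% against 7.47 and 7.47%; in both, KI mouse 6 was the high library. In LN, Ighv5 held 16.7 and 10.7% in Wt and 7.44 and 11.9% in KI.

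**Figure D4:**
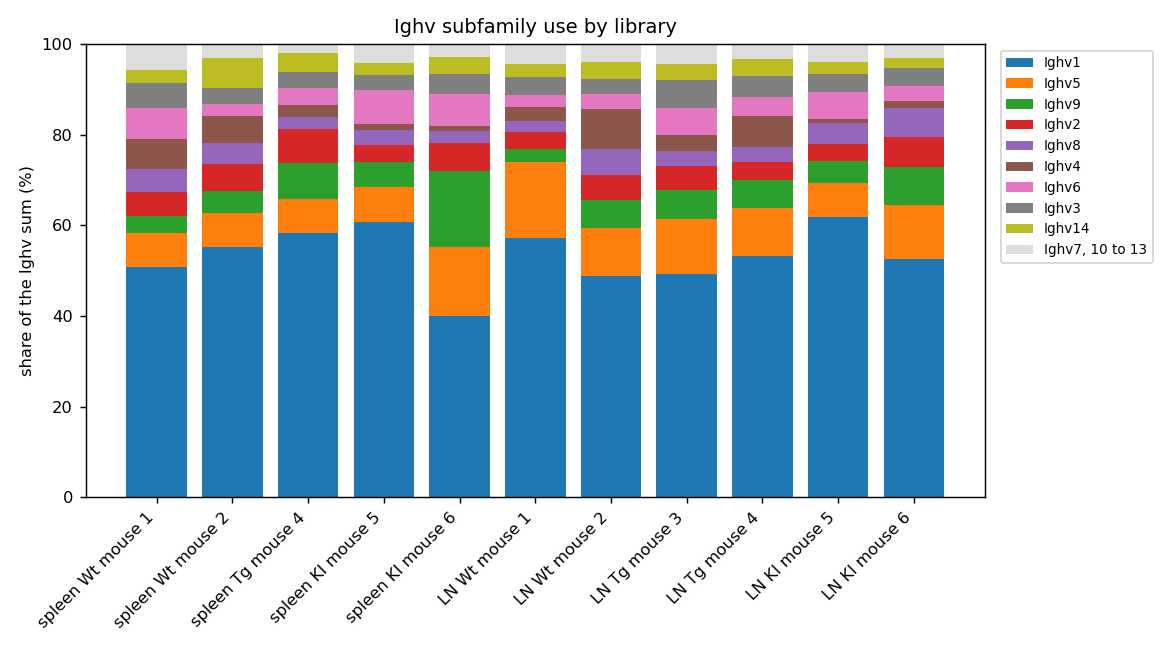
Share of the Ighv sum in percent held by each subfamily, 1 stacked bar per library; Ighv7 and Ighv10 to Ighv13 are drawn together. Ighv1 is 39.97% in the spleen of KI mouse 6 and 48.8% to 61.8% in the other 10 libraries, and Ighv4 is the thin band in KI.

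Of the 88 shares, 7 separated all 4 KI libraries from the other 7. Ighv1-81 and Ighv1-85 were above, and Ighv4-1, Ighv2-3, Ighv14-2, Ighv5-4 and Ighv1-15 below. Ighv4-1 held 0.80% to 1.57% in KI and 2.61% to 8.83% elsewhere, and Ighv1-15 held 0.489% to 0.669% in KI and 1.23% to 2.94% elsewhere. Ighv1-85 held 0.838% to 1.30% in KI and 0.376% to 0.812% elsewhere, a narrow gap, and the gap of Ighv5-4 was narrower still, at 1.20% against 1.22%. These are descriptions of shares, which sum to 100% in a library, and no test was made of them.

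Some segments differed in share between the KI mice. In both tissues the share of Ighv2-7 was higher in mouse 6 than in mouse 5, 72.9-fold in LN and 42.9-fold in spleen, and that of Ighv2-9 was 3.62-fold and 4.49-fold higher. Ighv12-3 was 3.10-fold and 3.00-fold higher in mouse 6. Ighv1-84 was the reverse, 9.59-fold higher in LN and 5.11-fold higher in spleen of mouse 5, with a signal of 407 and 34.5 in KI LN and 301 and 36.5 in KI spleen. These 4 were all the segments with a difference of at least 3-fold in the same direction in both tissues.

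Whole profiles were compared by Bray-Curtis distance, the percentage of the repertoire that would have to be moved to turn 1 library's shares into another's. The 2 tissues of 1 mouse differed by 19.2% to 29.4% (median 24.1%, 5 pairs), and libraries of different mice of 1 genotype by 18.8% to 32.2% (median 27.6%, 10 pairs). Wt and Tg libraries differed by 16.3% to 32.7% (median 23.2%, 12 pairs). Pairs of which 1 was KI differed by 21.9% to 41.2% (median 30.2%, 28 pairs). These ranges overlapped widely, and pairs that share a library are not independent.

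The rank of segments by mean signal was largely kept between genotypes, with a Spearman rho over 88 segments of 0.848 for Wt against KI in LN, 0.845 in spleen and 0.886 for Wt against Tg in LN. These values describe points that share libraries and segment lengths. Position in the locus showed little relation to the KI difference: rho with the order from the D end was 0.194 in LN and -0.103 in spleen. With the locus split in 3 by order, 24 of 29 segments nearest D, 24 of 29 in the middle and 23 of 30 farthest from D were called in LN, with medians of 3.46, 3.57 and 3.92. In spleen the counts were 10, 7 and 5. The 29 segments nearest D held 20.2% of the sum in the LN of KI mouse 5 and 44.3% in the spleen of KI mouse 6, the extremes of all 11 libraries.

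No segment passed the limma test between Tg and Wt in LN. Among the 88, limma called 0 in either direction, beside 0% of all genes called higher and 0% called lower. An unadjusted limma p under 0.05 was reached by 3 of the 88, beside 532 of all 10885 genes. Of the 88, edgeR called 0 and DESeq2 called 1. The median was 0.10, with 52 positive and 35 negative differences. The segment called by DESeq2 was Ighv3-1, at 46.8 and 31.7 in Wt LN, 146 and 88.6 in Tg LN and 605 and 577 in KI LN. Both Tg lymph nodes were above both Wt ones. DESeq2 gave 1.61 ± 0.36 (SE) with an adjusted p of 0.00517, and limma 1.54 ± 0.50 (SE) with an adjusted p of 0.955. Of the 21 alternatives to this limma fit, DESeq2 was the only 1 that passed. The other 2 with the smallest p were Ighv1-34 (2.84 ± 0.83 (SE), limma adjusted p = 0.924) and Ighv5-12, at 345 and 110.5 in Wt LN and 80.7 and 54.01 in Tg LN, where Wt mouse 1 was the high library.

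In spleen the 1 Tg library was taken to have the spread of the rest. There limma also called 0 of 88, beside 0% of all genes in each direction. Neither edgeR nor DESeq2 was run on spleen. Ighv2-9 had the smallest p of the 3 named. It was 178 and 189 in Wt spleen, 1489 in Tg spleen and 319 and 889 in KI spleen, and 41.04 and 25.3 in the Tg lymph nodes. The Tg spleen of mouse 4 was the highest of the spleens, while the LN of the same mouse was low. The difference was 3.01 ± 0.86 (SE) (limma adjusted p = 0.9998). Ighv2-3 and Ighv5-4 followed, at 1.06 ± 0.42 (SE) and 1.04 ± 0.38 (SE).

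KI was also above Tg in LN, in a comparison that uses the same KI libraries as that with Wt. Of 88 segments 72 were called higher in KI and 0 lower, beside 14.5% of all genes called higher and 12.2% called lower, with a median of 3.63; of the 69 that reached the minimum outside KI, 55 were called higher. The count fell to 47 without the LN of KI mouse 5 and 48 without that of Tg mouse 4, and edgeR called 79. Without KI mouse 5 in both tissues it was 59, and without KI mouse 6 it was 67. Ighv1-81 was higher by 6.48 ± 0.38 (SE) (limma adjusted p = 0.000115). Ighv1-54, at 26.9 and 37.1 in Tg LN and 766 and 1897 in KI LN, was higher by 5.21 ± 0.48 (SE) (limma adjusted p = 0.000319), with KI mouse 6 above KI mouse 5. Ighv2-6-8, at 1.42 and 5.91 in Tg LN against 177 and 129 in KI LN, and Ighv13-2, at 29.7 and 13.5 against 1087 and 371, did not overlap between the groups either; Ighv2-6-8 reached the table's minimum in KI only.

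Between the tissues of Wt mice, 12 of 88 segments were called lower in LN than in spleen and 0 higher, beside 6.29% of all genes called lower and 3.09% called higher. The median was -1.71, with 86 negative and 2 positive differences, against 0.02 over all genes. With the mouse as a fixed block, which pairs the tissues of 1 animal and leaves out mouse 3 (LN only), 50 were called lower. The share of all genes called with this block was not counted, so the higher count cannot be read as particular to Ighv. The count was 4 without the LN of Wt mouse 1 and 6 without the spleen of Wt mouse 2, and 27 or 28 without the spleen of KI mouse 5 or 6, libraries that enter this comparison only through the shared spread. The B cell markers moved with it: 6 of 8 were called lower in Wt LN than in Wt spleen, at a summed signal of 57345 and 63203 in LN against 96785 and 91661 in spleen, and 4 of 9 plasma cell markers were called lower (7505 and 11025 against 25257 and 22425). Their part in the Ighv difference was not tested.

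Ighv3-6, of the Ighv3 subfamily, had the smallest p in this comparison. It was 1153 and 747 in Wt spleen and 216 and 221 in Wt LN, a difference of -2.08 ± 0.26 (SE) (limma adjusted p = 0.00205) that held under all 19 alternatives. Ighv2-9-1 (-1.87 ± 0.29 (SE), limma adjusted p = 0.0034) and Ighv1-50 (-2.28 ± 0.33 (SE), limma adjusted p = 0.00396) also held under all 19. Among the called segments Ighv11-2 had the lowest estimate, -3.64 ± 0.94 (SE) (limma adjusted p = 0.0473), and its call was lost in 9 of 19 alternatives. The other 6 named, Ighv1-80, Ighv14-2, Ighv2-3, Ighv1-78, Ighv1-81 and Ighv2-2, had differences of -1.70 to -2.36, and each lost its call without at least 1 library.

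In KI mice the same comparison gave 3 of 88 segments called higher in LN and 0 lower, beside 4.78% of all genes called higher and 4.49% called lower, so the share of segments called was below that of all genes. The median was 0.51, with 68 positive and 20 negative differences. With the mouse as a fixed block 12 were called higher and 1, Ighv1-26, lower, at -0.84 ± 0.11 (SE, limma adjusted p = 0.000370). Here too the share of all genes called with the block was not counted. The 3 called were Ighv1-81 (2.40 ± 0.38 (SE), limma adjusted p = 0.0105), Ighv1-58 (2.08 ± 0.49 (SE), limma adjusted p = 0.0318) and Ighv2-9-1 (1.11 ± 0.29 (SE), limma adjusted p = 0.0381). Of these Ighv1-81 kept its call under the block, at 2.40 ± 0.15 (SE, limma adjusted p = 1.05e-05), and lost it without the LN of KI mouse 5; under the block the limma adjusted p was 0.166 for Ighv1-58 and 0.0640 for Ighv2-9-1, so both lost their calls. Without the spleen of KI mouse 6 the count was 1, without that of KI mouse 5 it was 9, and without any 1 of the 4 Wt libraries it was 5. Without both tissues of KI mouse 5 it was 5, and of KI mouse 6 it was 1.

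The tissue difference in the KI response was tested as an interaction, KI minus Wt in LN against KI minus Wt in spleen. Of 88 segments 4 were called with a larger KI rise in LN and 0 with a smaller one, beside 0.763% and 0.193% of all genes. With the mouse as a fixed block 36 were called, a count for which the share of all genes was not taken. The median was 2.15 on the log2 scale, and all 88 estimates were positive. The 4 were Ighv1-81 (4.15 ± 0.54 (SE), limma adjusted p = 0.0297), Ighv2-9-1 (2.98 ± 0.40 (SE), limma adjusted p = 0.0173), Ighv3-6 (2.90 ± 0.37 (SE), limma adjusted p = 0.0185) and Ighv1-50 (2.84 ± 0.47 (SE), limma adjusted p = 0.036). The fifth by p, Ighv2-3, did not pass (2.44 ± 0.49 (SE), limma adjusted p = 0.0504), and did with the mouse as a fixed block (limma adjusted p = 0.00603) and as a random one. Leaving out 1 library gave between 1 call (without the LN of KI mouse 5) and 15 (without the spleen of KI mouse 5), with 2 without the LN of Wt mouse 1, the spleen of Wt mouse 2 or the spleen of KI mouse 6. Without both tissues of KI mouse 5 it was 10, and of KI mouse 6 it was 2.

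Ighv2-9-1 and Ighv3-6 show the crossing in their signals. Ighv2-9-1 was 305 and 422 in Wt spleen and 85.5 and 110.5 in Wt LN, but 842 and 545 in KI spleen and 1175 and 1815 in KI LN. Ighv3-6 was 1153 and 747 in the spleens and 216 and 221 in the lymph nodes of Wt, against 2761 and 1627 in the spleens and 4007 and 3474 in the lymph nodes of KI. In each Wt mouse spleen was the higher tissue and in each KI mouse LN was.

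Heavy chain constant genes, which supply the other end of the same mRNA, rose with the variable segments. Of the 8 constant genes 5 rose and 1 fell in KI LN, beside 13.8% of all genes called higher and 12.2% called lower. The 1 that fell is thus near the share over all genes. In KI spleen 4 rose and 0 fell, beside 7.63% and 9.21%. Ighg2c, an IgG constant gene, was 3646 and 4092 in Wt LN against 272354 and 206815 in KI LN, a rise of 5.94 ± 0.62 (SE) (limma adjusted p = 0.00186). Ighm, the constant gene of IgM, rose by 1.17 ± 0.16 (SE) (limma adjusted p = 0.00064) and Igha, of IgA, by 2.80 ± 0.28 (SE) (limma adjusted p = 0.000342), while Ighd, of IgD, fell by 0.55 (SE 0.15, limma adjusted p = 0.0217). The share of Ighm in the constant signal was 45.6 and 48.2% in Wt LN against 9.67 and 12.8% in KI LN.

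The ratio of the Ighv sum to the constant sum differed less between genotypes than either sum. It was 0.113 and 0.116 in Wt LN, 0.0859 and 0.106 in Tg LN and 0.166 and 0.195 in KI LN, and 0.128 and 0.134 in Wt spleen, 0.151 in Tg spleen and 0.155 and 0.146 in KI spleen. KI LN lay above Wt LN by 0.66 on the log2 scale with a combined SD of 0.16. KI spleen lay above Wt spleen by 0.20 with a combined SD of 0.08, and by 0.10 with each library's leading segment left out. The 4 Ighj segments, which complete the joined exon, were all called higher in KI LN, beside 13.8% of all genes. In spleen 2 of 4 were called higher, beside 7.63% of all genes, with a median difference over the 4 of 1.33 on the log2 scale.

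Factors and cell type markers moved in the same comparison. Of 20 genes of heavy chain transcription and secretion 12 rose and 1 fell in KI LN, beside 13.8% of all genes called higher and 12.2% called lower: Jchain, the chain that joins antibody subunits, rose by 5.24 ± 0.26 (SE) (limma adjusted p = 1.28e-05), Mzb1, a chaperone of antibody assembly, by 2.93 ± 0.14 (SE) (limma adjusted p = 3.06e-06), and Ell2, an elongation factor that favours secretory heavy chain mRNA, by 2.15 ± 0.19 (SE) (limma adjusted p = 5.42e-05). Hnrnpll, a splicing factor of plasma cells, was the 1 that fell. Of 11 measured hypermutation and switch enzymes, out of 12 listed, 3 rose and 1 fell, beside those same shares of all genes.

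Plasma cell markers rose in KI LN in 8 of 9 genes, with a summed signal of 143128 and 148179 against 7505 and 11025 in Wt LN, and germinal centre markers in 7 of 8 (17430 and 13580 against 2948 and 2569). B cell markers were less uniform: 5 of 8 rose and 2 fell, with a summed signal of 90564 and 73861 against 57345 and 63203. T cell markers fell in 7 of 8 (24238 and 32662 against 58535 and 54464) and macrophage markers in 5 of 8 (859 and 678 against 1814 and 1220). Of all genes, 13.8% were called higher and 12.2% lower in KI LN, and 7.63% and 9.21% in KI spleen. In KI spleen 6 of 9 plasma cell markers rose and 1, Irf4, fell. The 9 summed to 124739 and 76282 in KI spleen against 25257 and 22425 in Wt spleen, and Jchain alone was 105380 and 61413 in KI spleen. Also in KI spleen, 4 of 8 germinal centre markers rose, 3 of 8 B cell markers rose and 1, Cr2, fell, and 5 of 8 T cell markers fell. The 5 erythroid markers summed to 22832 in the spleen of KI mouse 5 and to 509 to 2362 in the other spleens, and the 5 neutrophil markers to 29107 and 35151 in the spleens of Tg mouse 4 and Wt mouse 2 and 1141 to 4007 in the others. Of 5 stroma markers 0 are in the table. The part of these cell types in the Ighv rise was not tested.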

How the data were processed

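The members and gene lists were chosen with earlier results of these data known. The submitters' processing notes name FastQC 0.11.5, STAR 2.5, featureCounts, Subread 1.4.6 and DESeq2 1.26.0, with the build GRCm39; annotation release, strand setting, treatment of reads that match several genes and the filter on genes are not stated in the sources used. The authors deposited a normalised signal for 10885 genes in 11 libraries; per the file's values it is a read count divided by 1 factor per library, since dividing by the smallest increment of each library gave whole reads for 100% of values, to within 0.05. RNA came from dissociated cells with a SMARTER kit, per the labels' protocols.

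Group means of the 6 tissue and genotype groups were fitted to log2(value + 1) with limma-trend 3.58.1 (R 4.3.3; empirical Bayes with trend and robust) over all 11 libraries, with Benjamini-Hochberg adjustment, and the fit was tested on simulated data. Errors beside differences are standard errors of this fit; a combined SD is the root of the summed variances of both groups over libraries. No test was made of sums, shares or effective numbers. For LN, edgeR 4.0.16 and DESeq2 1.42.0 were run on recovered reads. The same number marks the spleen and LN of 1 animal, so numbers pair libraries across tissues. Deviations from the group mean correlated between the tissues at 0.138 in Wt and 0.594 in KI over the 88 segments. Over all 10885 genes the values were higher, at 0.403 in Wt and 0.900 in KI. With 2 mice per group, each value rests on 1 difference between mice. The mouse was an alternative, fitted as a fixed block or as a random term (statmod 1.5.0; duplicateCorrelation gave 0.0168). Replicates are 2 mice per group, so p-values rest on a spread shared over all groups.

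Named segments were those with 1 of the 3 largest shares in any library, up to 10 called in each direction with the largest difference and no overlap of the groups, the 3 with the smallest p where none was called, and the 5 with the smallest interaction p. Segments named for a share that set groups apart, for a difference between the KI mice or for a near-identical partner were chosen after their values were seen. Identity is 1 minus edits over the length of the shorter transcript, from GENCODE M21 (GRCm38), which matched all 88 identifiers. That build differs from the files' build, so positions are not printed and only the order along the locus is used.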

Additional observations from a re-analysis of the deposited data

Results flagged for a closer look

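The KI effect differed between tissues, by the interaction term of limma, in 4 segments, each with a larger KI rise in LN than in spleen. Ighv1-81 differed by 4.15 on the log2 scale, Ighv2-9-1 by 2.98, Ighv3-6 by 2.90 and Ighv1-50 by 2.84. Ighv1-50 was 442 and 406 in Wt spleen, 69.3 and 108 in Wt LN, 1226 and 629.8 in KI spleen and 1469.6 and 1145 in KI LN. Each of the 4 calls was lost in at least 2 of 19 alternatives (7 for Ighv1-81, 3 for Ighv2-9-1, 2 for Ighv3-6 and 9 for Ighv1-50), with an adjusted p of at most 0.122 over the alternatives of all 4. Ighv1-50 has a relative, Ighv1-69, at 97.2% identity.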

How the results depend on the processing

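Over 70 comparisons of named segments, alternatives kept direction and side of the threshold 1215 times, lost the call 161 times, gained it 14 times and reversed it 0 times. With the mouse as a fixed replicate block, the count of called segments was 50 for LN against spleen in Wt (12 without it), 13 for LN against spleen in KI (3 without it) and 36 for the interaction (4 without it). The share of all genes called with the fixed block was not counted. As a random replicate block the mouse changed no count by over 1.5 times. Without KI mouse 5 in both tissues, an alternative chosen after seeing the data, the counts were 13 for KI against Wt in spleen, 32 for the tissues in Wt, 5 for the tissues in KI and 10 for the interaction; without KI mouse 6 in both tissues they were 31 for the tissues in Wt, 1 for the tissues in KI and 2 for the interaction. Leaving out 1 library at a time gave 48 to 73 calls for KI against Wt in LN, 7 to 27 in spleen, 47 to 75 for KI against Tg in LN, 4 to 28 for the tissues in Wt, 1 to 9 for the tissues in KI and 1 to 15 for the interaction. A fit to spleen alone gave 14 calls for KI against Wt, and DESeq2 gave 1 for Tg against Wt in LN. The log2 ratio of variable to constant signal, KI against Wt in spleen, went from 0.20 to 0.10 without each library's leading segment. The cause of these changes was not tested, beyond the fewer samples where libraries were left out. Pseudocounts of 0.1 and 5, a minimum of 100 in 2 libraries and rescaling without immunoglobulin and haemoglobin genes moved no count of called segments by over 1.5 times. For segments near 1 read, 2 mice per group limit the precision of a difference.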

Other observations

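Among light chains, the effective number of kappa variable segments was 48.8 to 52.6 in all libraries but those of KI mouse 6, where it was 15.6 in spleen and 23.4 in LN on a summed signal of 142 and 168. The ratio of the heavy to the kappa variable sum was 0.597 to 0.689 in the other 9 libraries.

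Ighv1-62-2 and Ighv1-71, identical over the shorter transcript, did not carry equal signal: Ighv1-62-2 was 211 and 73.6 in KI LN and 305 and 69.5 in KI spleen, and Ighv1-71 was 250.2 and 199.97 and 224 and 88.1. Ighv1-37 was 11.1 and 143 in the Wt spleens and at most 41.4 in any other library; its spleen difference between KI and Wt was the most negative of the 88 segments.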
